A study of Mus musculus with 24 samples.

Results

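The 54 genes described here encode nucleolar ribosome biogenesis factors. They were taken by symbol from 23787 mouse genes with a probe on the array, and 93 probes stood for them. By the step in which their products act, 5 belong to transcription by RNA polymerase I, 8 to the small nucleolar ribonucleoproteins (snoRNPs), 20 to the small subunit, 18 to the large subunit and 3 to several steps. The cells were TM3, a mouse line derived from Leydig cells, the testosterone-producing cells of the testis, and all samples came from this 1 line. Cells in suspension were placed in electroporation cuvettes and either left unpulsed (sham) or given a nanosecond pulsed electric field (nsPEF), which was 80 pulses of 60 ns with an amplitude of 5.5 kV, a field of 14 kV/cm and a treatment time of 180 s. RNA was taken at 0, 4 and 24 h from 4 biological replicates of each treatment (the study ran the assays of a replicate side by side on a shared cell suspension, and whether different replicates came from separate cultures is not given in the sources used here, so p-values measure only the spread between these samples), which gave 24 one-colour arrays in the groups S0, S4 and S24 for sham and E0, E4 and E24 for nsPEF. Sham cells went through the same harvest, straining and cuvette as exposed cells, so a change with time in sham cells is a change after handling, and no unhandled cells are compared here. For the exposure the cells were suspended in Annexin V binding buffer at room temperature, and the study describes the following hours as a standard culture. Time can therefore not be told apart from this change from buffer and suspension to culture. Each slide held the 8 arrays of 1 time point, and on it the sham arrays lay in one row and the nsPEF arrays in the other, so time cannot be told apart from slide, nor treatment from the place on the slide.

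Ribosomes are assembled in the nucleolus. RNA polymerase I transcribes the ribosomal DNA into a long precursor, snoRNPs modify and help to fold it, and large assemblies of proteins cut it and build it into a small and a large subunit that are finished and exported to the cytoplasm. The genes for these factors are known to be transcribed together when cells grow, and the transcription factor Myc, which binds the E-box sequence CACGTG with its partner Max, is a known activator of many of them.

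The E-box was looked for in the promoters of the genes because their levels moved together. Promoter windows of 300 bases, from 250 bases before to 50 after the start of a transcript, were at hand for 44 of the 54 genes (RefSeq, GRCm38.p6), and the windows of 8 of them held the E-box, against 8.09% of all 27025 genes in the same table. Each site is printed below 5′ to 3′ on the strand of its gene with up to 12 bases on each side, and the capitals mark the E-box.
Rrn3, chr16:13780472-13780501 (+): gagcgccaaggtCACGTGcacacgcctcta
Rrn3, chr16:13780639-13780668 (+): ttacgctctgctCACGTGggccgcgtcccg
Utp18, chr11:93885769-93885798 (-): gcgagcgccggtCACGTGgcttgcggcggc
Utp20, chr10:88826765-88826789 (-): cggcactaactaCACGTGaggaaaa
Wdr43, chr17:71616220-71616249 (+): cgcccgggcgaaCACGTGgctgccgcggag
Ltv1, chr10:13193092-13193121 (-): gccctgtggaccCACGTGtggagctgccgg
Tsr1, chr11:74898092-74898121 (+): tcacttggtgcaCACGTGgactgcagaatg
Nop2, chr6:125131811-125131840 (+): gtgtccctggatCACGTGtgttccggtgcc
Pes1, chr11:3963965-3963994 (+): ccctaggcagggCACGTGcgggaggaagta
Rrn3 held 2 E-boxes, at positions -215 and -48 from the start, and each of the other 7 genes held 1. The E-box reads the same on both strands. Among 75 other ribosome biogenesis genes with a window, 14 (18.7%) held it, beside 18.2% of the 44 genes here. On either strand, CGCGAG stood in 12 of the 44 (27.3%, against 12.3% of all genes), and the GC box GGGCGG in 34 (77.3%, against 38.2%). The 3 motifs were searched separately, so a stretch may count for more than 1, and the other promoters were not matched for base composition. A match is a run of letters and says nothing of whether a factor was bound.

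Expression is given as the log2 of an array's background-subtracted signal minus that array's 75th percentile, called the log2 level, so that 0 is the 75th percentile of the array. The level of one probe cannot be set against that of another. All 54 genes passed the filter, under which 2 or more of a group's 4 arrays had to read well above background, and 53 of them were well above background on all 24 arrays. Utp18 was so on 14. The 75th percentile of the signal ranged from 202 to 533 units and the share of probes well above background from 51.2% to 62.1%, with 0 saturated spots. The highest of both belonged to S4 replicate 4, on which 36 of the 54 genes had their lowest value in the group. The share of all genes lowest on that array was not counted. In this line the Leydig cell genes Star, Cyp17a1 and Nr5a1 were well above background on all 24 arrays, whereas Cyp11a1 and Lhcgr were so on 0 and Hsd3b1 on 1, and the stromal genes Vim, Col1a1, Pdgfra and Pdgfrb were so on all 24. Of the markers of other cells, Sox9 and Wt1 (2 of 4 Sertoli cell genes), Cd68 and Csf1r (2 of 4 macrophage genes) and Pecam1 (1 of 3 endothelial genes) were also so on all 24, whereas Amh, Dazl, Fshr, Sycp3, Adgre1, Ptprc and Kdr were so on 1 or 2 arrays, Cdh5 on 0 and the germ cell gene Ddx4 on 16. In RNA from whole cultures, fewer cells of a type and less RNA per cell cannot be told apart.

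The first question was how the genes moved with time in sham-exposed cells. From 0 to 4 h, 51 of the 54 genes rose and 0 fell (limma, adjusted p under 0.05 over all tested probes). Among all 16842 tested genes 30.8% rose and 34.6% fell. The median difference of the 54 was 1.20 on the log2 scale (2.29-fold), beside -0.04 for all tested genes, and it ranged from -0.08 for Npm1 to 2.39 for Rrp12. A difference of at least 1 was measured for 33 genes and of at least 2 for 4, which were Rrp12, Ddx21, Rrs1 and Rrp9. All 4 S4 arrays lay above all 4 S0 arrays for 50 of the 54 genes, and for 30.4% of all genes. Ubtf, Nop10 and Npm1 did not pass the test. The summed levels of some marker lists moved over the same interval. Summed over the list, with 1 as the 75th percentile of the array, the Sertoli cell genes lay at 30.4 to 37.1 in S0, 17.4 to 22.6 in S4 and 26.7 to 30.5 in S24. The macrophage genes lay at 3.11 to 3.31 in S0, 4.84 to 5.80 in S4 and 1.66 to 1.90 in S24. In the same order of groups, the Leydig cell genes lay at 4.38 to 6.29, 3.60 to 4.63 and 2.64 to 3.91. The stromal genes lay at 253 to 277, 225 to 299 and 228 to 237. Endothelial genes gave 0.128 to 0.149, 0.107 to 0.112 and 0.174 to 0.227, and germ cell genes 0.150 to 0.192, 0.116 to 0.370 and 0.0718 to 0.0970. Such a sum is carried by the brightest probes of its list, and several markers were well above background on few or no arrays. It therefore does not show that a list moved as a whole. The part of these markers in the rise was not tested.

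In nsPEF-exposed cells the same interval gave 52 genes that rose and 0 that fell, with a median of 1.19, while 34.8% of all genes rose and 33.0% fell. The summed Sertoli cell genes lay between 31.3 and 35.3 in E0 and at or below 19.6 in E4. The macrophage genes lay between 2.50 and 3.05 in E0 and between 4.95 and 5.42 in E4. In E0 and E4 the Leydig cell genes lay at 3.57 to 5.35 and 3.87 to 4.24, and the stromal genes at 251 to 285 and 290 to 310. Endothelial genes gave 0.161 to 0.203 and 0.102 to 0.132, and germ cell genes 0.145 to 0.183 and 0.0851 to 0.129. The E4 arrays lay wholly above the E0 arrays for 52 of the 54, and for 32.1% of all genes. The genes that rose in both treatments numbered 51. Nop10 passed the test in nsPEF-exposed cells and not in sham (0.27, adjusted p = 0.000698, against 0.12, adjusted p = 0.0922), and the test of the difference between treatments over time gave an adjusted p of 0.383 for it.

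**Figure D1:**
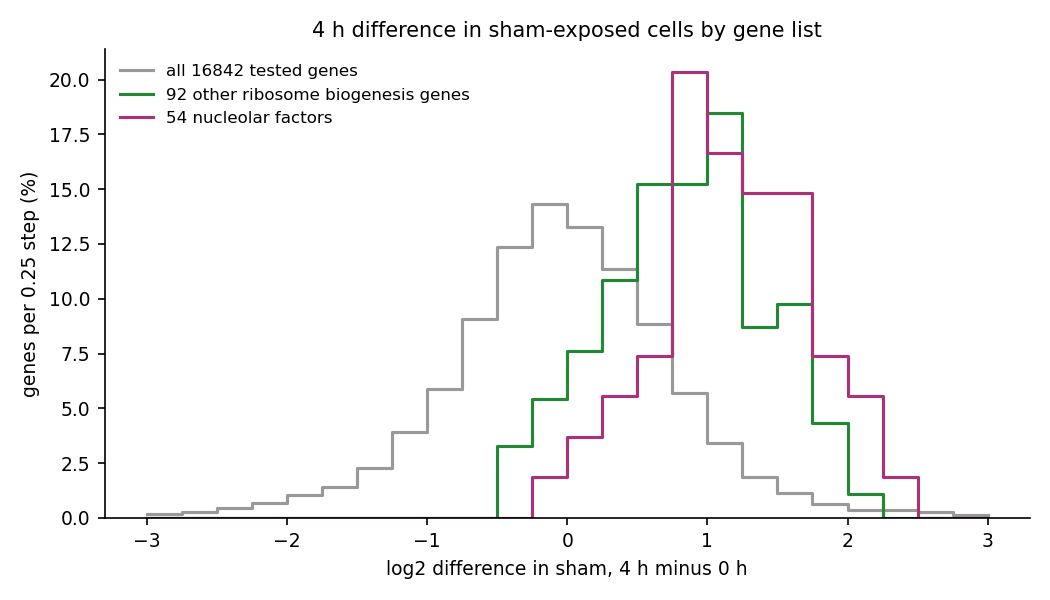
The share of genes (y axis, percent) in each step of 0.25 of the log2 difference between 4 and 0 h in sham-exposed cells (x axis, shown from -3 to 3) is drawn for the 54 nucleolar factors, 92 other ribosome biogenesis genes and all 16842 tested genes. The distribution of all genes centres near 0 (median -0.04), and those of the factors (median 1.20) and of the other genes of the pathway (median 0.86) lie to the right of it.

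A list of 92 further ribosome biogenesis genes, also chosen with earlier results of these data known, was read in the same way. In sham cells 79 of them rose and 6 fell from 0 to 4 h, with a median of 0.86, and the counts in nsPEF-exposed cells were 79 and 6 with a median of 0.91. By step, 9 of 11 genes of RNA polymerase I transcription rose in sham cells and 2 fell, 7 of 10 snoRNP assembly genes rose and 2 fell, 31 of 34 small subunit genes rose and 0 fell, and 32 of 37 large subunit genes rose and 2 fell.

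By step, the median 4 h difference of the 54 genes in sham cells was highest for the small subunit, at 1.46, followed by the large subunit at 1.23, the snoRNPs at 0.88, RNA polymerase I transcription at 0.78 and the genes of several steps at 0.69. In nsPEF-exposed cells the medians were 1.47, 1.27, 0.93, 0.63 and 0.76. The steps hold different numbers of genes, and these medians were not tested against each other. The 20 small subunit genes and the 18 large subunit genes all rose in both treatments.

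**Figure D2:**
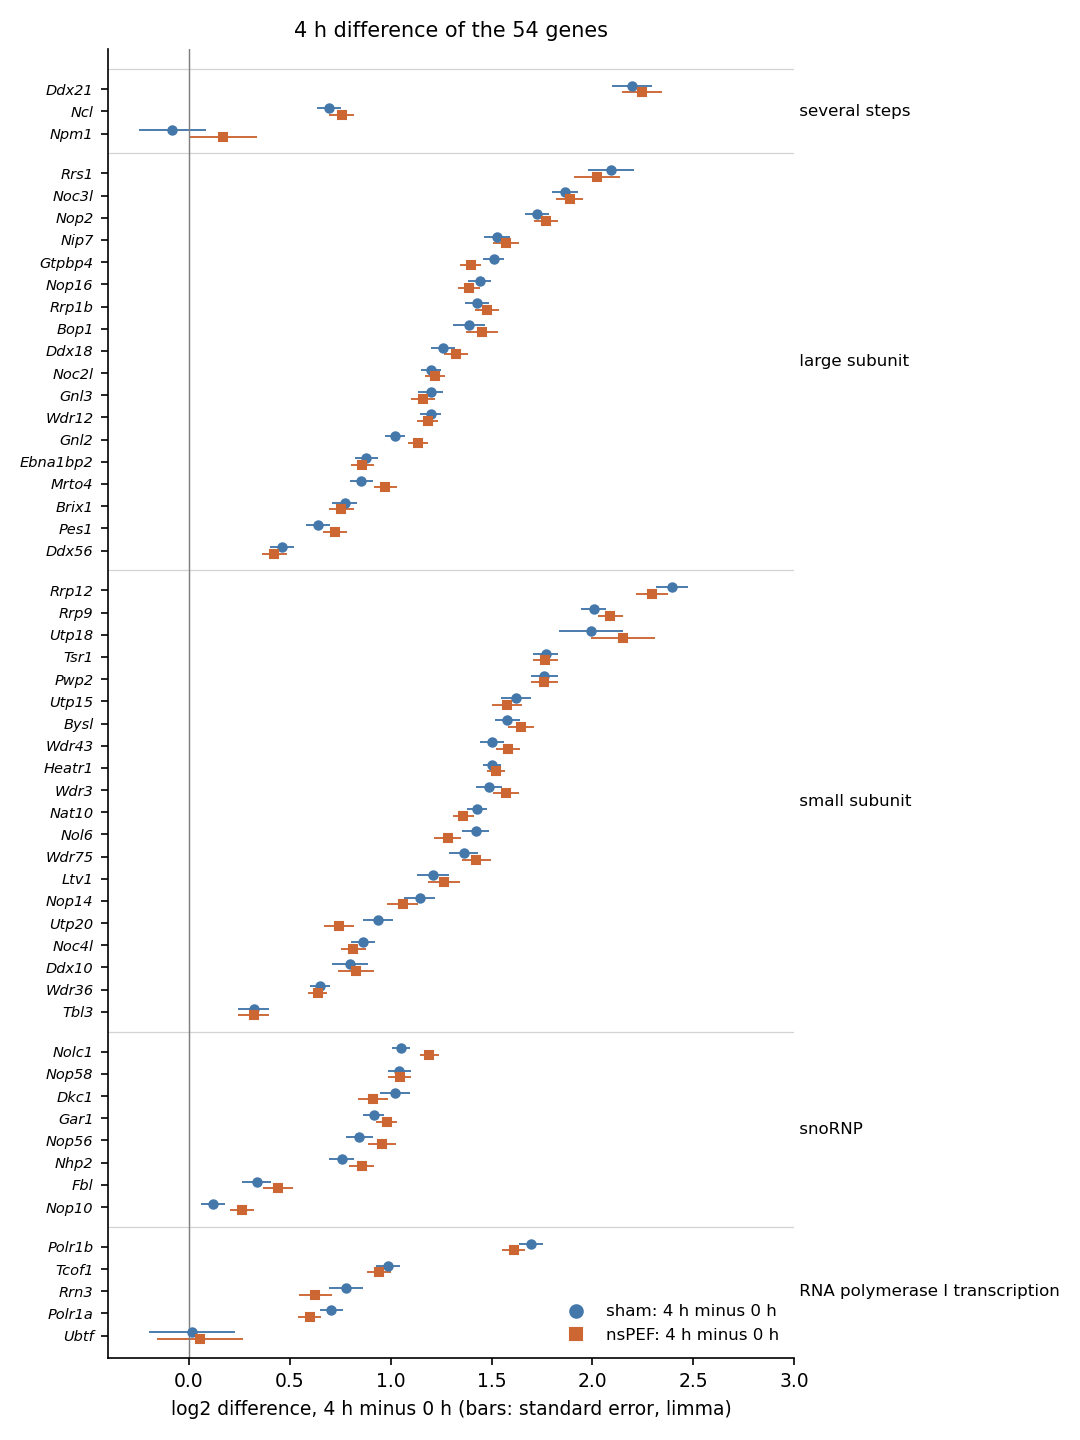
Each of the 54 genes is drawn with its log2 difference between 4 and 0 h (x axis) in sham (circles) and in nsPEF-exposed cells (squares), grouped by step, and bars are limma's standard errors. The pairs of marks lie close together, and Ubtf and Npm1 lie near 0 with the widest bars, while Rrp12, Ddx21, Rrs1 and Rrp9 lie above 2 in both. The nsPEF mark of Utp18 was set against E0 readings that were not well above background, so it is no exact difference.

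Among the genes of RNA polymerase I transcription, 4 of 5 rose at 4 h in both treatments. Polr1a encodes the largest subunit of the enzyme. Its log2 level was 4.19, 4.17, 4.20 and 4.14 in S0, 4.93, 4.90, 4.78 and 4.91 in S4 and 4.16, 4.17, 4.22 and 4.39 in S24. With nsPEF it was 4.13, 4.15, 4.21 and 4.26 in E0, 4.72, 4.77, 4.82 and 4.83 in E4 and 4.21, 4.41, 4.42 and 4.43 in E24. The 4 h arrays lay above those of 0 h in both treatments, with differences of 0.71 ± 0.057 (SE, 1.63-fold, adjusted p = 1.06e-09) in sham and 0.60 in nsPEF. Polr1b, the second-largest subunit, moved furthest of the 5. It stood at 1.66, 1.58, 1.56 and 1.66 in S0, 3.41, 3.34, 3.20 and 3.29 in S4 and 1.71, 1.69, 1.61 and 1.72 in S24. In exposed cells the values were 1.66, 1.55, 1.73 and 1.75 in E0, 3.37, 3.31, 3.21 and 3.23 in E4 and 1.75, 1.85, 1.85 and 1.97 in E24. The rise came to 3.24-fold in sham (adjusted p = 2e-15) and 3.05-fold in nsPEF (adjusted p = 3.93e-15), and by 24 h the level in sham was 0.07 above that of 0 h, a difference that did not pass the test (adjusted p = 0.401).

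Rrn3 encodes the initiation factor that brings RNA polymerase I to its promoter when cells grow, and its 2 E-boxes are printed above. In sham cells it was measured at 3.23, 3.16, 3.07 and 3.26 in S0, 4.11, 4.09, 3.90 and 3.73 in S4 and 3.03, 3.00, 2.98 and 2.90 in S24. In exposed cells the levels were 3.10, 2.93, 3.15 and 3.22 in E0, 3.82, 3.86, 3.62 and 3.60 in E4 and 3.11, 3.05, 2.94 and 3.09 in E24. It rose 1.72-fold in sham and 1.54-fold in nsPEF, and at 24 h all 4 S24 arrays lay below the lowest S0 array (difference -0.20, adjusted p = 0.0655). Tcof1 encodes treacle, a nucleolar scaffold of ribosomal DNA transcription. Its sham levels were 4.11, 4.16, 4.19 and 3.96 in S0, 5.03, 5.19, 5.15 and 5.00 in S4 and 4.05, 4.07, 4.07 and 4.09 in S24. After nsPEF they were 4.23, 4.21, 4.13 and 4.14 in E0, 5.11, 5.18, 5.15 and 5.03 in E4 and 4.07, 4.29, 4.18 and 4.30 in E24. The 4 h rise was 1.98-fold in sham and 1.92-fold in nsPEF.

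Ubtf encodes the architectural factor that keeps ribosomal DNA open. Its brightest probe gave 7.22, 7.21, 6.81 and 7.10 in S0, 7.56, 7.29, 7.30 and 6.27 in S4 and 7.33, 7.32, 7.27 and 6.79 in S24. In exposed cells it gave 7.31, 7.02, 7.06 and 7.16 in E0, 7.46, 7.37, 7.02 and 6.92 in E4 and 7.32, 6.91, 6.76 and 6.80 in E24. The groups overlapped, S4 replicate 4 lay over 1 below the other S4 arrays, and the difference was 0.02 ± 0.21 (SE, adjusted p = 0.953), or 0.30 (adjusted p = 0.129) without that array. The probes of Ubtf disagreed, since another rose by 0.29 (adjusted p = 0.00555) and the third fell by 0.32 (adjusted p = 0.0035). They are assigned to different transcripts of the gene.

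Of the 8 snoRNP genes, 7 rose at 4 h in sham cells and 8 in nsPEF-exposed cells. Nolc1, a chaperone that shuttles snoRNPs between nucleolus and Cajal bodies, had the largest sham difference of them. It was at 4.69, 4.76, 4.61 and 4.74 in S0, 5.78, 5.73, 5.77 and 5.72 in S4 and 4.95, 4.95, 5.03 and 5.07 in S24. Exposed cells had 4.72, 4.69, 4.62 and 4.56 in E0, 5.88, 5.85, 5.82 and 5.80 in E4 and 5.01, 5.11, 5.07 and 5.04 in E24. The rise was 2.07-fold in sham and 2.29-fold in nsPEF, and both treatments were still above 0 h at 24 h (by 0.30 and 0.41, adjusted p = 3.34e-05 and 6.33e-07). Nop58 is a core protein of the box C/D snoRNPs, which guide methylation of ribosomal RNA. Levels of 4.62, 4.73, 4.57 and 4.57 in S0 went to 5.77, 5.66, 5.66 and 5.57 in S4 and 4.59, 4.56, 4.62 and 4.62 in S24. Exposed cells went from 4.60, 4.63, 4.60 and 4.58 in E0 to 5.74, 5.72, 5.59 and 5.54 in E4 and 4.74, 4.85, 4.67 and 4.88 in E24. At 4 h it had risen 2.06-fold in sham and 2.06-fold in nsPEF, and the 24 h level differed from 0 h in nsPEF (by 0.18, adjusted p = 0.0145) but not past the threshold in sham (-0.02, adjusted p = 0.787). For Nop58 the test of the difference between treatments over time gave an adjusted p of 0.25.

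Fbl encodes fibrillarin, the methyltransferase of the same particles, and it moved little. It stood at 6.74, 6.70, 6.56 and 6.76 in S0, 7.18, 7.13, 7.06 and 6.73 in S4 and 6.61, 6.65, 6.63 and 6.57 in S24. The nsPEF arrays held 6.65, 6.53, 6.61 and 6.61 in E0, 7.09, 7.13, 6.98 and 6.96 in E4 and 6.74, 6.81, 6.71 and 6.74 in E24. The S4 and S0 arrays overlapped because of S4 replicate 4, and the difference was 0.34 ± 0.073 (SE, adjusted p = 0.000537), or 0.43 without that array. In nsPEF it was 0.44 with no overlap (adjusted p = 2.75e-05).

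The box H/ACA snoRNPs guide the conversion of uridine to pseudouridine, and the mRNAs of their proteins changed by unequal amounts. Gar1, 1 of these genes, rose by 0.92 in sham and 0.98 in nsPEF. Dkc1 is the pseudouridine synthase itself. Its values were 0.49, 0.44, 0.29 and 0.44 in S0, 1.53, 1.48, 1.42 and 1.32 in S4 and 0.64, 0.64, 0.72 and 0.51 in S24. After exposure they were 0.48, 0.35, 0.44 and 0.38 in E0, 1.46, 1.47, 1.21 and 1.16 in E4 and 0.62, 0.75, 0.86 and 0.75 in E24. It rose 2.03-fold in sham and 1.88-fold in nsPEF. Nhp2, which binds the guide RNA, was at 5.84, 5.78, 5.74 and 5.87 in S0, 6.68, 6.62, 6.55 and 6.41 in S4 and 6.01, 5.90, 6.01 and 6.00 in S24. Its exposed arrays gave 5.80, 5.72, 5.73 and 5.71 in E0, 6.61, 6.67, 6.54 and 6.57 in E4 and 6.17, 6.37, 6.16 and 6.39 in E24. Nhp2 rose 1.69-fold in sham and 1.81-fold in nsPEF, and the E24 arrays lay wholly above the S24 arrays. Nop10, the smallest of these proteins, held 4.30, 4.31, 4.31 and 4.23 in S0, 4.31, 4.41, 4.45 and 4.45 in S4 and 4.38, 4.29, 4.39 and 4.49 in S24. With nsPEF it held 4.13, 4.31, 4.14 and 4.04 in E0, 4.39, 4.43, 4.47 and 4.38 in E4 and 4.33, 4.54, 4.39 and 4.49 in E24. Its 4 h differences, 0.12 and 0.27, were the smallest of the 8 in both treatments.

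The small subunit genes held the largest rise of all. Rrp12, an RNA-binding factor of precursors of the small subunit, was at 2.81, 2.73, 2.69 and 2.86 in S0, 5.25, 5.28, 5.10 and 5.04 in S4 and 3.17, 3.19, 3.18 and 2.99 in S24. In exposed cells it was at 2.70, 2.60, 2.81 and 2.93 in E0, 5.03, 5.13, 5.05 and 5.00 in E4 and 3.35, 3.51, 3.32 and 3.60 in E24. The 4 h groups stood well apart from those of 0 h, 5.26-fold higher in sham (log2 2.39 ± 0.078, SE, adjusted p = 9e-16) and 4.91-fold higher in nsPEF. By 24 h the sham level had fallen 4.1-fold from its 4 h level but stayed 0.36 above 0 h (adjusted p = 0.0012). Rrp9 is a protein of the U3 snoRNP, which starts the cutting of the precursor. Sham arrays gave 1.04, 0.90, 1.05 and 1.09 in S0, 2.99, 3.01, 3.04 and 3.08 in S4 and 1.19, 1.22, 1.20 and 1.29 in S24. The nsPEF arrays gave 1.02, 0.95, 0.95 and 0.98 in E0, 3.09, 3.14, 2.98 and 3.05 in E4 and 1.33, 1.56, 1.45 and 1.70 in E24. The 4 h rise was 4.02-fold in sham and 4.25-fold in nsPEF.

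Utp18 is a component of the small subunit processome, the large assembly on the nascent precursor, and its probe read near background on many arrays. It gave -4.73, -4.54, -5.03 and -4.48 in S0, -2.74, -2.45, -2.75 and -2.87 in S4 and -4.37, -4.27, -4.48 and -4.31 in S24. In exposed cells the readings were -5.05, -5.26, -4.78 and -4.83 in E0, -2.46, -2.73, -3.10 and -3.02 in E4 and -4.14, -4.79, -4.50 and -4.30 in E24. The probe was well above background on 2 of the S0 arrays and on all 4 of S4, E4 and S24, but on 0 of E0 and E24. In sham the measured means differed 3.98-fold (adjusted p = 8.66e-10), a value that is not exact because 2 S0 arrays did not read the probe well above background. In nsPEF the level at 4 h was at least 2.85-fold higher than at 0 h and at least 2.36-fold higher than at 24 h, against the lowest signal called well above background on each array. The test was made on the measured readings (adjusted p = 2.5e-10 and 3.13e-08), those of E0 and E24 included, and not on these bounds.

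At the other end of the small subunit genes stood Wdr36 and Tbl3, both proteins of the processome. Wdr36 was at 1.87, 1.82, 1.97 and 1.90 in S0, 2.55, 2.62, 2.51 and 2.48 in S4 and 2.02, 2.05, 1.95 and 2.02 in S24. Its nsPEF values were 1.82, 1.86, 1.76 and 1.87 in E0, 2.48, 2.51, 2.47 and 2.41 in E4 and 2.02, 2.15, 2.03 and 2.16 in E24. The rise was 1.57-fold in sham and 1.56-fold in nsPEF. Tbl3 had 3.07, 2.96, 3.07 and 3.18 in S0, 3.48, 3.49, 3.42 and 3.17 in S4 and 2.89, 2.94, 2.95 and 3.07 in S24. With nsPEF it had 2.99, 3.02, 2.92 and 2.98 in E0, 3.26, 3.30, 3.28 and 3.34 in E4 and 3.02, 3.35, 3.20 and 3.38 in E24. Its 4 h rise was 1.25-fold in both treatments, and S4 replicate 4 lay among the S0 arrays. Tbl3 fell from 4 to 24 h in sham (by 0.43, adjusted p = 6.88e-05), whereas its nsPEF difference of -0.06 did not pass the test (adjusted p = 0.54). The test of the difference between treatments over time did not call Tbl3.

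A pair of further processome and late-assembly genes is given because they also differed between treatments at 24 h. Heatr1, a large scaffold protein of the processome, was measured at 3.58, 3.68, 3.53 and 3.58 in S0, 5.12, 5.12, 5.04 and 5.10 in S4 and 3.90, 3.88, 3.91 and 3.96 in S24. After nsPEF it was measured at 3.59, 3.53, 3.55 and 3.58 in E0, 5.09, 5.07, 5.07 and 5.12 in E4 and 4.01, 4.18, 4.00 and 4.17 in E24. Heatr1 rose 2.83-fold at 4 h in sham (adjusted p = 3.59e-16, the lowest of the 54) and 2.87-fold in nsPEF. Bysl encodes bystin, which accompanies the small subunit from nucleolus to cytoplasm. It stood at 2.98, 2.96, 3.00 and 2.92 in S0, 4.55, 4.60, 4.58 and 4.46 in S4 and 3.08, 3.09, 3.10 and 3.25 in S24. In exposed cells it stood at 2.89, 2.81, 2.84 and 2.88 in E0, 4.49, 4.48, 4.49 and 4.55 in E4 and 3.23, 3.59, 3.41 and 3.59 in E24. It rose 2.99-fold in sham and 3.13-fold in nsPEF. The remaining 13 small subunit genes rose by 0.80 (Ddx10) to 1.77 (Tsr1) in sham.

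Among the large subunit genes Rrs1, Noc3l and Nop2 moved furthest. Rrs1 brings the 5S ribonucleoprotein into the large subunit. Its sham levels were 2.21, 2.21, 2.08 and 2.23 in S0, 4.40, 4.43, 4.30 and 3.98 in S4 and 2.66, 2.60, 2.61 and 2.34 in S24. Its nsPEF levels were 2.26, 2.00, 2.25 and 2.24 in E0, 4.45, 4.40, 4.05 and 3.94 in E4 and 2.76, 2.68, 2.47 and 2.74 in E24. The 4 h level was 4.27-fold higher than at 0 h in sham and 4.06-fold higher in nsPEF. Noc3l, a protein of early large subunit precursors, gave -0.23, -0.05, -0.23 and -0.27 in S0, 1.67, 1.69, 1.64 and 1.68 in S4 and -0.06, 0.04, 0.07 and 0.01 in S24. Exposed cells gave -0.24, -0.15, -0.17 and -0.09 in E0, 1.73, 1.73, 1.75 and 1.68 in E4 and 0.08, 0.29, 0.09 and 0.42 in E24. It rose 3.64-fold in sham and 3.7-fold in nsPEF. Nop2, a methyltransferase of ribosomal RNA whose E-box is printed above, was at 4.86, 4.81, 4.84 and 4.98 in S0, 6.62, 6.70, 6.58 and 6.50 in S4 and 5.19, 5.20, 5.18 and 5.23 in S24. After nsPEF it was at 4.86, 4.81, 4.76 and 4.88 in E0, 6.60, 6.60, 6.52 and 6.66 in E4 and 5.26, 5.51, 5.32 and 5.52 in E24. The rise was 3.31-fold and 3.41-fold, and both treatments stayed above 0 h at 24 h (0.33 and 0.58, adjusted p = 0.00021 and 2.08e-07).

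Pes1, Bop1 and Wdr12 form the PeBoW complex, which is needed to process the precursor of the large subunit. Pes1 was at 4.93, 5.06, 4.96 and 5.09 in S0, 5.80, 5.67, 5.65 and 5.47 in S4 and 4.96, 5.05, 5.08 and 5.01 in S24. In exposed cells it was at 4.93, 4.85, 4.91 and 4.97 in E0, 5.69, 5.69, 5.55 and 5.62 in E4 and 5.08, 5.19, 5.06 and 5.11 in E24. Bop1 and Wdr12 rose further than Pes1 in both treatments. Bop1 held 3.23, 3.22, 3.47 and 3.40 in S0, 4.69, 4.76, 4.68 and 4.74 in S4 and 3.49, 3.38, 3.49 and 3.57 in S24. Its nsPEF arrays held 3.22, 3.25, 3.21 and 3.19 in E0, 4.63, 4.68, 4.66 and 4.72 in E4 and 3.52, 3.93, 3.77 and 4.01 in E24. The 4 h rise in sham was 1.56-fold for Pes1 and 2.62-fold for Bop1. Wdr12 held 2.48, 2.59, 2.56 and 2.66 in S0, 3.78, 3.83, 3.81 and 3.66 in S4 and 2.69, 2.62, 2.65 and 2.79 in S24. With nsPEF it held 2.53, 2.56, 2.52 and 2.52 in E0, 3.77, 3.71, 3.70 and 3.68 in E4 and 2.82, 2.97, 2.84 and 2.96 in E24. It rose 2.29-fold in sham, and for Bop1 and Wdr12 the level at 24 h differed from 0 h in nsPEF (by 0.59 and 0.37, adjusted p = 6.68e-06 and 1.01e-05) and not past the threshold in sham (0.15 and 0.11, adjusted p = 0.148 and 0.0914). The test of the difference between treatments over time called neither gene.

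Mrto4 takes part in building the stalk of the large subunit. Sham cells had 3.70, 3.71, 3.53 and 3.64 in S0, 4.52, 4.58, 4.49 and 4.42 in S4 and 3.64, 3.61, 3.64 and 3.66 in S24. Exposed cells had 3.60, 3.64, 3.50 and 3.44 in E0, 4.52, 4.55, 4.51 and 4.48 in E4 and 3.75, 3.93, 3.73 and 3.94 in E24. From 0 to 4 h it rose 1.81-fold in sham and 1.96-fold in nsPEF. Ddx56, an RNA helicase of large subunit precursors, moved least of the 18. Its values were 2.91, 2.94, 3.01 and 2.98 in S0, 3.32, 3.40, 3.47 and 3.50 in S4 and 2.74, 2.72, 2.79 and 2.92 in S24. After exposure its values were 2.75, 2.75, 2.80 and 2.82 in E0, 3.18, 3.28, 3.16 and 3.20 in E4 and 2.71, 2.91, 2.80 and 3.02 in E24. The 4 h rise was 1.38-fold in sham, and it was the 1 gene of the 54 called lower at 24 h than at 0 h in sham (by 0.17, adjusted p = 0.0373). The other 10 large subunit genes rose by 0.77 (Brix1) to 1.53 (Nip7) in sham.

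The 3 genes that act at several steps moved to different extents. Ddx21, an RNA helicase that links RNA polymerase I transcription to processing, was at 2.40, 2.50, 2.25 and 2.49 in S0, 4.76, 4.74, 4.59 and 4.32 in S4 and 3.05, 2.97, 3.02 and 2.72 in S24. In exposed cells it was at 2.34, 2.20, 2.45 and 2.37 in E0, 4.72, 4.73, 4.46 and 4.44 in E4 and 3.20, 3.21, 3.06 and 3.23 in E24. It rose 4.58-fold in sham and 4.74-fold in nsPEF, and its differences between 24 and 0 h, 0.53 in sham and 0.83 in nsPEF, were the largest of the 54. Ncl encodes nucleolin, an abundant nucleolar RNA-binding protein. Its brighter probe gave 6.41, 6.43, 6.45 and 6.52 in S0, 7.25, 7.18, 7.24 and 6.93 in S4 and 6.61, 6.65, 6.67 and 6.58 in S24. With nsPEF the same probe gave 6.43, 6.54, 6.40 and 6.44 in E0, 7.25, 7.28, 7.16 and 7.16 in E4 and 6.66, 6.78, 6.66 and 6.78 in E24. That is a rise of 0.69 in sham (1.62-fold) and 0.76 in nsPEF, whereas the dimmer probe of the same transcript rose by 2.68 and 2.64, so the size of the change of Ncl depends on the probe.

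Npm1 encodes nucleophosmin, an abundant histone and ribosome chaperone with many pseudogenes, to which a probe may also bind. Its brightest probe stood at 7.75, 7.68, 7.54 and 7.58 in S0, 7.92, 7.81, 7.70 and 6.79 in S4 and 7.60, 7.55, 7.63 and 7.33 in S24. In nsPEF the values were 7.78, 7.79, 7.53 and 7.57 in E0, 7.98, 7.86, 7.82 and 7.69 in E4 and 7.68, 7.62, 7.40 and 7.42 in E24. S4 replicate 4 lay far below the other S4 arrays, and the difference between S4 and S0 went from -0.08 (adjusted p = 0.705) to 0.17 (adjusted p = 0.134) without it. Of the other probes of Npm1, one rose by 0.71 (adjusted p = 1.86e-09) and the other gave 0.07 (adjusted p = 0.481). Over all 26 genes with more than 1 tested probe, only Npm1 and Ubtf had probes that differed in the call at 4 h in sham. The size of the sham rise differed between probes for further genes. Those of Brix1 gave 0.77 and 1.42, of Pes1 0.64 and 1.01 and of Rrp1b 0.85 to 1.80, whereas those of Dkc1 gave 1.02 and 1.04. Ranks, ranges and step medians therefore hold for the brightest probe of each gene. Of all 93 probes, 88 rose and 1 fell.

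The second question was how far the levels had returned by 24 h. In sham cells 51 of the 54 genes fell from 4 to 24 h and 0 rose, with a median of -1.04, while 33.8% of all genes fell and 31.7% rose. With nsPEF 50 fell and 0 rose, with a median of -0.86, beside 31.7% and 31.7% of all genes. On the spike-in scale, which moved the median of all tested genes by 0.65 in sham and 0.39 in nsPEF, the falls were smaller, with medians of -0.39 in sham (35 genes fell and 5 rose) and -0.46 in nsPEF (38 fell and 2 rose). The 24 h level lay between those of 0 and 4 h for 41 genes in sham and 50 in nsPEF, and no such count was made over all genes. Against 0 h, 25 genes were higher at 24 h in sham and 1 was lower (median 0.17), with 15.7% of all genes higher and 22.8% lower. In exposed cells 42 were higher and 0 lower (median 0.29), with 24.3% of all genes higher and 21.5% lower. Of the 5 genes of RNA polymerase I transcription, 0 were higher than at 0 h in sham and 2, Polr1a and Polr1b, were higher in nsPEF. Scaling on the spike-in RNA moved the median of all tested genes between 24 and 0 h in sham from -0.02 to 0.68, and relative to that median the 54 genes lay 0.19 higher under both scalings. On the spike-in scale all 54 were called higher, Ddx56 included. The share of all genes called on that scale was not counted, so this count and those of the falls have no background beside them.

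**Figure D3:**
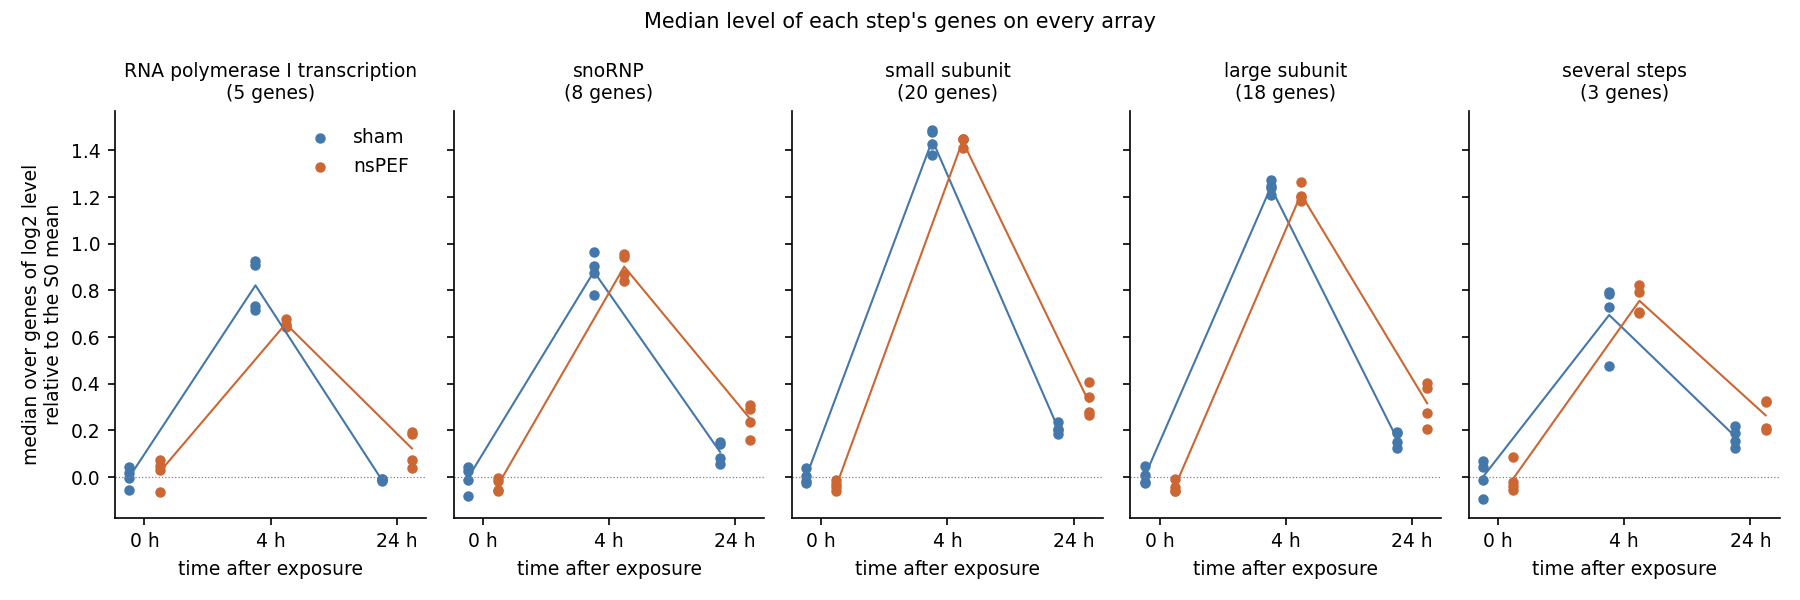
For each step (panels) the median over its genes of the log2 level relative to the S0 mean (y axis) is drawn for every array at 0, 4 and 24 h (x axis), sham and nsPEF side by side, and lines join the means of 4 arrays. In every panel the 4 h arrays lie above those of 0 and 24 h, and at 4 h the small subunit median reached 1.44 ± 0.05 in sham and 1.44 ± 0.02 in nsPEF (mean ± SD, n = 4).

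The difference between 24 and 0 h was larger in nsPEF than in sham for 50 of the 54 genes, by a median of 0.16, beside 0.04 over all tested genes, an order that turns on the spike-in scaling, where the medians of the 54 were 0.77 in nsPEF and 0.87 in sham (0.51 and 0.68 over all tested genes). The test of whether the time course differed between treatments called 0 of the 54, and 0.428% of all genes, by adjusted p. An unadjusted limma p under 0.05 was given to 19 of the 54. The share of all genes at that unadjusted threshold was not counted, so 19 has no background beside it. Bysl came nearest (adjusted p = 0.0542). The count was 0 to 3 in the other settings except with array weights, where it was 15, and without E24 replicate 1, where it was 8. Shares of all genes were not counted in those settings.

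**Figure D4:**
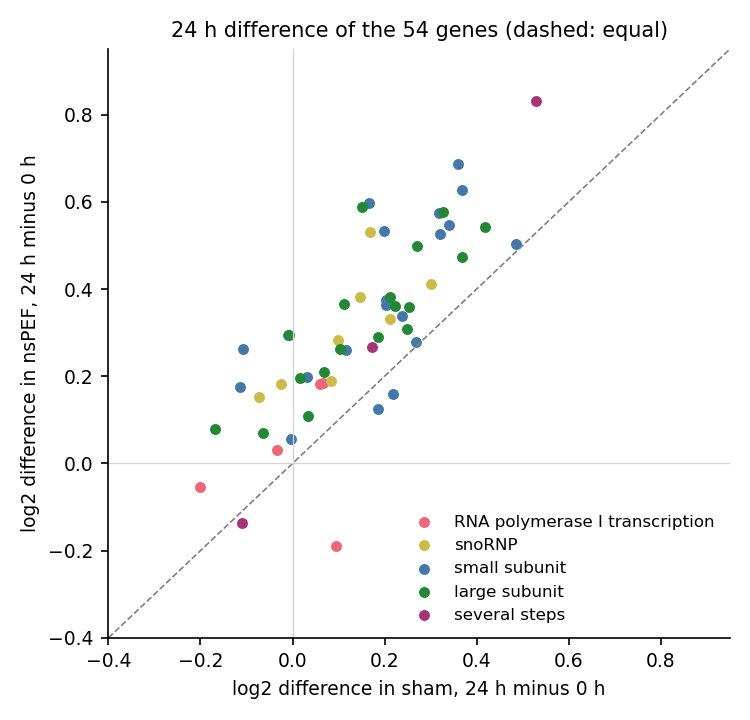
Each point is 1 of the 54 genes, with its log2 difference between 24 and 0 h in sham (x axis) and in nsPEF-exposed cells (y axis), coloured by step, and the dashed line marks equal differences. Above the line lie 50 points, under the 75th percentile scaling used here, and Ddx21 lies farthest to the upper right (0.53 and 0.83).

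The third question was whether nsPEF changed these genes against sham at the same time. Immediately after exposure 0 of the 54 genes differed and the median difference was -0.03 (0.101% of all genes differed, and 2 of the 54 had an unadjusted limma p under 0.05, both lower in nsPEF). At 4 h 0 differed, with a median of -0.02, while 1.69% of all genes were higher and 2.35% lower, and 3 of the 54 had an unadjusted p under 0.05, all lower in nsPEF. The shares of all genes at 0 and 4 h are by adjusted p, and those by unadjusted p were not counted. With a plain linear model in place of limma's moderation the counts were 0 at 0 h and 2 at 4 h. On the spike-in scale the medians turned to 0.13 at 0 h and 0.17 at 4 h, beside 0.12 and 0.16 over all tested genes. These differences are small beside the 4 h rise of 1.20 in sham.

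At 24 h, 9 of the 54 genes were higher in nsPEF-exposed cells and 0 were lower, beside 2.76% and 2.98% of all genes. They were Nhp2 of the snoRNPs, Rrp9, Rrp12, Tbl3, Heatr1 and Bysl of the small subunit, and Bop1, Wdr12 and Mrto4 of the large subunit. The median difference of the 54 was 0.12 (1.09-fold), against 0.01 for all tested genes. Of the 54, 51 were positive and 50 lay above that median of all tested genes. An unadjusted limma p under 0.05 was given to 28 of the 54, all higher, and to 12.6% of all genes in that direction. All 4 E24 arrays lay above all 4 S24 arrays for 16 of the 54, and for 6.86% of all genes. Among the 92 other genes of the pathway 6 were higher and 1 lower, with a median of 0.04. The differences were small. Bop1 had the largest, 0.33 ± 0.079 (SE, 1.25-fold, adjusted p = 0.0252), and E24 replicate 1 lay among its S24 arrays. Bysl was higher by 0.32 (adjusted p = 0.00868), and E24 replicate 1 lay just under S24 replicate 4. Rrp12 was higher by 0.31 (adjusted p = 0.0283) and Nhp2 by 0.29 (adjusted p = 0.0118), both with no overlap. Rrp9 was higher by 0.29 (adjusted p = 0.0151), Tbl3 by 0.27 (adjusted p = 0.0451) and Wdr12 by 0.21 (adjusted p = 0.0241). Mrto4 and Heatr1 had the smallest differences, 0.20 and 0.18 (adjusted p = 0.0461 and 0.0323), again with no overlap between the groups. Rrp12, Tbl3, Heatr1 and Wdr12 have further probes, all higher in nsPEF, and none of them passed. They gave 0.32 for Rrp12 (adjusted p = 0.108), 0.29 for Tbl3 (0.0513), 0.15 and 0.78 for Heatr1 (0.0623 and 0.0635) and 0.05 and 0.13 for Wdr12 (0.728 and 0.182). For Nop56 a dimmer probe passed (0.20, adjusted p = 0.0237) and the brightest did not (0.22, adjusted p = 0.068).

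**Figure D5:**
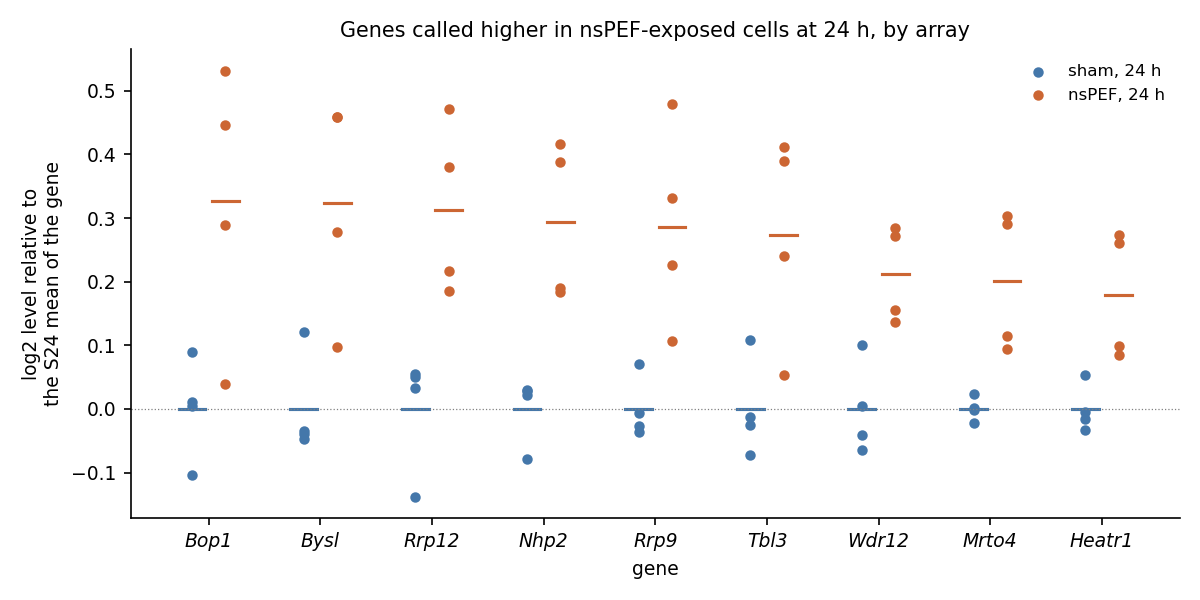
For the 9 genes called higher at 24 h, the log2 level relative to the gene's S24 mean (y axis) is drawn for each of the 4 sham and 4 nsPEF arrays, with a bar at the mean. The nsPEF means lie 0.18 (Heatr1) to 0.33 (Bop1) above those of sham.

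These calls at 24 h rest on few arrays. E24 replicate 1 held the lowest E24 value for 29 of the 54 genes and E24 replicate 4 the highest for 28, without a count over all genes. The count of 9 became 21 without E24 replicate 1, and 2 or 3 without E24 replicate 2 or 4 or S24 replicate 1, 2 or 3. How the share of all genes moved in these fits was not counted. Nhp2 and Bysl passed the test whichever of the 8 arrays was left out, and Rrp9 in 7 of the 8 cases. With 1 replicate number left out of all groups, Bysl passed in 2 of 4 cases and Nhp2 and Rrp9 in 1 of 4. On scaling to the spike-in RNA 0 genes passed, with a median of 0.06 for the 54 and -0.05 for all tested genes. The share of probes well above background was 52.4% to 57.2% on the E24 arrays and 59.0% to 61.0% on the S24 arrays. It was also lower with nsPEF at 0 h (52.6% to 57.0%, against 57.5% to 59.6%) and at 4 h (51.2% to 56.0%, against 57.7% to 62.1%). Its part in the 24 h result was not tested. Over all times together 0 of the 54 genes differed between nsPEF and sham, beside 10.1% of all genes, both by adjusted p, and the plain linear model called 1. An unadjusted limma p under 0.05 was given to 8 of the 54, and the share of all genes at that threshold was not counted.

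Myc is no member of the list and was read because it is a known activator of these genes. Its sham levels were 3.46, 3.62, 3.46 and 3.41 in S0, 4.39, 4.43, 4.49 and 4.47 in S4 and 3.50, 3.49, 3.49 and 3.56 in S24. Its nsPEF levels were 3.59, 3.71, 3.63 and 3.51 in E0, 4.76, 4.66, 4.83 and 4.62 in E4 and 3.46, 3.52, 3.40 and 3.31 in E24. It rose 1.94-fold at 4 h in sham (adjusted p = 1.49e-11) and 2.16-fold in nsPEF, and at 4 h it was 1.21-fold higher in nsPEF than in sham (log2 0.27 ± 0.059, SE, adjusted p = 0.0174) with no overlap. For Myc the test of the difference between treatments over time gave an adjusted p of 0.0869, and that over all times together gave 0.0681 (limma). Its difference was not read under the alternative settings. At 4 h 0 of the 54 genes differed between the treatments, while 1.69% of all genes were higher and 2.35% lower in nsPEF. Of the other 9 genes of the Myc network, Max, the partner of Myc, rose by 1.29 in sham, and Mycn and Mga rose by 0.59 and 0.36. Of the genes for repressors that bind Max, Mga thus rose, whereas the other 5 fell at 4 h in sham, Mxd3 by 1.91, Mxd1 by 1.21, Mxd4 by 1.19, Mnt by 1.11 and Mxi1 by 0.34, with adjusted p from 9.6e-13 (Mnt) to 1e-06 (Mxd1). Mxd4 was still 1.29 lower at 24 h than at 0 h in sham (adjusted p = 9e-09), while Mnt stood at -0.04 (adjusted p = 0.629). Mycl was well above background on 11 arrays and gave 0.30 ± 0.66 (SE, adjusted p = 0.735). These are levels of mRNA, and whether any of the 54 genes responded to Myc was not tested.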

How the data were processed

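Total RNA from TM3 cells was labelled with Cy3 and hybridised to one-colour Agilent mouse arrays, 24 in all, 4 for each of 6 groups. The authors extracted each array with Feature Extraction 12.0 (submitters' processing notes) and deposited its scanner output, in which the processed signal is a background-subtracted, detrended intensity on a linear scale. They also deposited a table of log2 values, which per the methods were shifted to the 75th percentile and set to the median of all samples in GeneSpring. It was used here as an alternative.

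Of 62976 spots, 3671 control spots and the spots marked as outliers were left out. The processed intensity was averaged over the remaining spots of each of 56605 probes and its log2 was taken. The array's 75th percentile over the probes was then subtracted. Probes were named through the accession in the scanner files and RefSeq. A probe was tested if, in any group, 2 or more of the 4 arrays read it well above background, and 37684 were. The 6 group means were fitted with limma 3.58.1 (lmFit and eBayes) in R 4.3.3 with data.table (version 1.17.8), as in the 2-way design with interaction of the study's methods, and p-values were adjusted by Benjamini-Hochberg over all tested probes. Every adjusted p is limma's and 2-sided. The tested probe with the highest mean over all arrays stood for a gene. The fit was tested on simulated data. The number of arrays limits the precision.

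The 54 genes, their steps, the other genes of the pathway and the Myc network were chosen with earlier results of these data known. Values on every array are given for Ncl, Npm1, Fbl, the genes of RNA polymerase I transcription, the 3 largest and 2 smallest 4 h differences of each other step, the genes called between treatments and Myc. Columns of other series numbered 0. Alternatives were other scalings (quantile, spike-in RNA, the 75th percentile over detected probes), normexp background correction with an offset of 50, other filters, the mean of a gene's probes, marked spots kept, centring by rows of spots, array weights, a replicate block, a plain linear model, the deposited log2 table, and each array left out.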

Additional observations from a re-analysis of the deposited data

Results flagged for a closer look

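Among 222 groups of 4 values, those of the named genes, Myc and the step medians, 10 held a value whose distance from the other 3 was large against the range of the group. Chance gives such a value in about 1 of 20 groups, or 11.1 of 222, so the number of them is not above that. Log2 levels are given. Polr1a read 4.21 on E24 replicate 1 while the other E24 arrays read 4.41 to 4.43. The small subunit median relative to S0 was 1.41 on E4 replicate 1 while the other E4 arrays were near 1.45. S24 replicate 4 stood apart for 4 genes, with Ubtf at 6.79, Rrp12 at 2.99, Bysl at 3.25 and Myc at 3.56, of which Ubtf and Rrp12 were below the other S24 arrays and Bysl and Myc above them. Without that array 10 genes were called higher in nsPEF at 24 h in place of 9. Nhp2 read 5.90 on S24 replicate 2, below the others. Nop10 read 4.23 on S0 replicate 4 and Rrs1 2.08 on S0 replicate 3, both the lowest of their group, and Rrs1 read 2.00 on E0 replicate 2, also the lowest.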

How the results depend on the processing

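The counts of genes that rose at 4 h were 51 to 52 in sham and 51 to 53 in nsPEF over all alternatives, and the count at 0 h between treatments was 0 in all of them. The counts of genes that differed between 24 and 0 h in sham (26, of which 25 higher) were 54 on scaling to the spike-in RNA and 15 to 25 with arrays left out (15 without replicate number 3). Between treatments at 4 h (0 genes) the count was 5 with spike-in scaling, all higher, and otherwise lower genes only, 2 with no filter, 1 with the mean of probes, 2 with marked spots kept, 2 in the deposited log2 table, 3 with array weights, 2 in the plain model, and 0 to 1 with arrays left out (1 without S4 replicate 4 or E4 replicate 2). At 24 h (9 genes) it was 16 with quantile normalization, 17 with the 75th percentile over detected probes, 0 with spike-in scaling, 4 with normexp, 14 with no filter, 21 with array weights, and 0 to 21 with arrays left out. Leaving out S24 replicate 1, 2 or 3 or E24 replicate 2 gave 3 each, E24 replicate 4 gave 2, E24 replicate 1 gave 21, and replicate numbers 2 or 3 gave 0. The test of differing time courses (0 genes) gave 2 with quantile normalization, 1 with normexp, 1 with the filter on all 4 arrays, 3 with the mean of probes, 15 with array weights, 1 with row centring, 1 in the plain model, and 0 to 8 with arrays left out (8 without E24 replicate 1). Over all times (0 genes) the counts were 2 with quantile normalization, 15 with spike-in scaling, 8 with the 75th percentile over detected probes, 3 with array weights, 1 each with no filter, the mean of probes, marked spots kept, the deposited table, row centring and the plain model, and 0 to 3 with arrays left out (3 without E24 replicate 1). With the mean of its probes the 4 h difference of Npm1 turned from -0.08 to 0.23 (adjusted p = 0.0253), since 1 of its other probes rose. The cause of the other changes was not tested. Shares of all genes called under the alternatives were not counted, so the counts under them have no background beside them.

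The labels do not say that a replicate number marks a shared batch, and the numbers were not taken to pair the samples. In 36 pairs of same-numbered arrays the correlation of deviations from the group means ran from -0.065 to 0.0998, with 0 over 0.1, although in 19 of the 36 the array correlated best with its own number, where 1 in 4 would by chance. That is a hint from the data that the numbers may be shared. The study's shared cell suspension within a replicate is a ground for pairing in the design, but the labels do not tie the numbers to suspensions. The main fit left such pairing out. With the replicate number as a block, 10 genes were called at 24 h between treatments, 1 at 4 h and 1 over all times.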
